A study of Macaca mulatta with 24 samples.

Results

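The genes described are 10 subunits of the voltage-gated calcium channels, taken from the deposited table as the rows whose symbol was CACNA1A, CACNA1B, CACNA1C, CACNA1D, CACNA1E, CACNA1G, CACNA1H, CACNA2D1, CACNA2D3 or CACNB4. All 10 were found among the 17208 gene rows, and all 10 had a mean of at least 1 TPM (a share of the total RNA, corrected for gene length and scaled to the same total in every animal) over the animals. They were measured by RNA-Seq of the core of the nucleus accumbens (NAcc), the part of the ventral striatum tied to reward and motivated action, in 24 adult male rhesus macaques. Each animal gave 1 sample. The 8 controls drank water and received a calorically matched maltose dextrin solution. The drinkers were induced to self-administer ethanol by schedule-induced polydipsia, had daily open access to 4% ethanol and water afterwards, and were sampled with no abstinence imposed. LD* are the 8 animals labelled LD, a group in which the study combined low and binge drinkers. HD* joins the 4 animals labelled HD and the 4 labelled VHD, that is, heavy and very heavy drinkers by the study's categories. Daily ethanol intake averaged (± SD) 1.58 ± 0.53 g/kg for LD*, 2.92 ± 0.16 g/kg for HD and 3.37 ± 0.29 g/kg for VHD. Intake and drinking category were the animal's own behaviour and were not assigned, so they cannot be told apart from whatever else distinguished the animals.

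A voltage-gated calcium channel opens on depolarization and lets calcium into the neuron. Its pore is a single large α1 subunit, which sets the current type. Auxiliary β subunits in the cytoplasm and α2δ subunits on the outer face bring the pore to the membrane and tune its gating. CACNA1C and CACNA1D encode the pores of L-type channels, which link firing in striatal projection neurons to kinases and transcription. CACNA1A, CACNA1B and CACNA1E encode the P/Q-type, N-type and R-type pores, of which P/Q and N serve transmitter release. CACNA1G and CACNA1H encode T-type pores, which open near rest. CACNA2D1 and CACNA2D3 encode α2δ subunits, CACNA2D1 being the one bound by gabapentin, and CACNB4 encodes a β subunit of neurons.

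By cohort, 2 LD* animals were from cohort 4, while 3 controls, 2 HD and 2 VHD were from cohort 5. Cohort 7a had 2 controls, 3 LD*, 2 HD and 2 VHD, and cohort 7b had 3 controls with 3 LD*. The deposited values carry no read depth, so no counting error can be given. Animals are named by group and a number that serves only as a name. All 12 markers of striatal projection neurons, among them DRD1, DRD2, PPP1R1B and PENK, were above 0 in every animal, and their sum ranged from 2771 to 12267 TPM in 23 animals. Control 6, from cohort 7b, stood apart. Its summed striatal markers were 782 TPM, all 12 were below those of every other animal (DRD1 8.14 TPM, against 53.4 to 274 TPM in the others), and its summed oligodendrocyte markers were the highest, at 10128 TPM. Results that include this animal are therefore also given without it where they moved. In tissue of mixed cells, fewer cells of a type and less RNA per cell cannot be told apart.

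The α2δ subunit CACNA2D3 was the most abundant member, at 123 ± 51.6 TPM (mean ± SD, n = 24). Next came the T-type pore CACNA1H at 63.5 ± 12.9 TPM and the R-type pore CACNA1E at 49.1 ± 22.4 TPM. CACNA2D1 was at 33.2 ± 14.7 TPM, CACNB4 at 27.6 ± 11.8 TPM, CACNA1B at 23.1 ± 7.09 TPM and CACNA1A at 18.5 ± 4.06 TPM. The L-type pores were lower, with CACNA1C at 9.73 ± 2.83 TPM and CACNA1D at 6.61 ± 2.13 TPM, and CACNA1G was lowest at 4.04 ± 2.94 TPM. The order was not equally firm at every step. CACNA1E exceeded CACNA2D1, CACNA1A exceeded CACNA1C and CACNA1C exceeded CACNA1D in 24 of 24 animals. CACNA2D3 exceeded CACNA1H in 22 animals, CACNA1B exceeded CACNA1A in 20, CACNA2D1 exceeded CACNB4 in 19 and CACNA1D exceeded CACNA1G in 19. CACNA1H exceeded CACNA1E in 18 and CACNB4 exceeded CACNA1B in 17 of 24 animals, so these neighbours changed places from animal to animal. The plot of levels by group shows each animal.

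**Figure D1:**
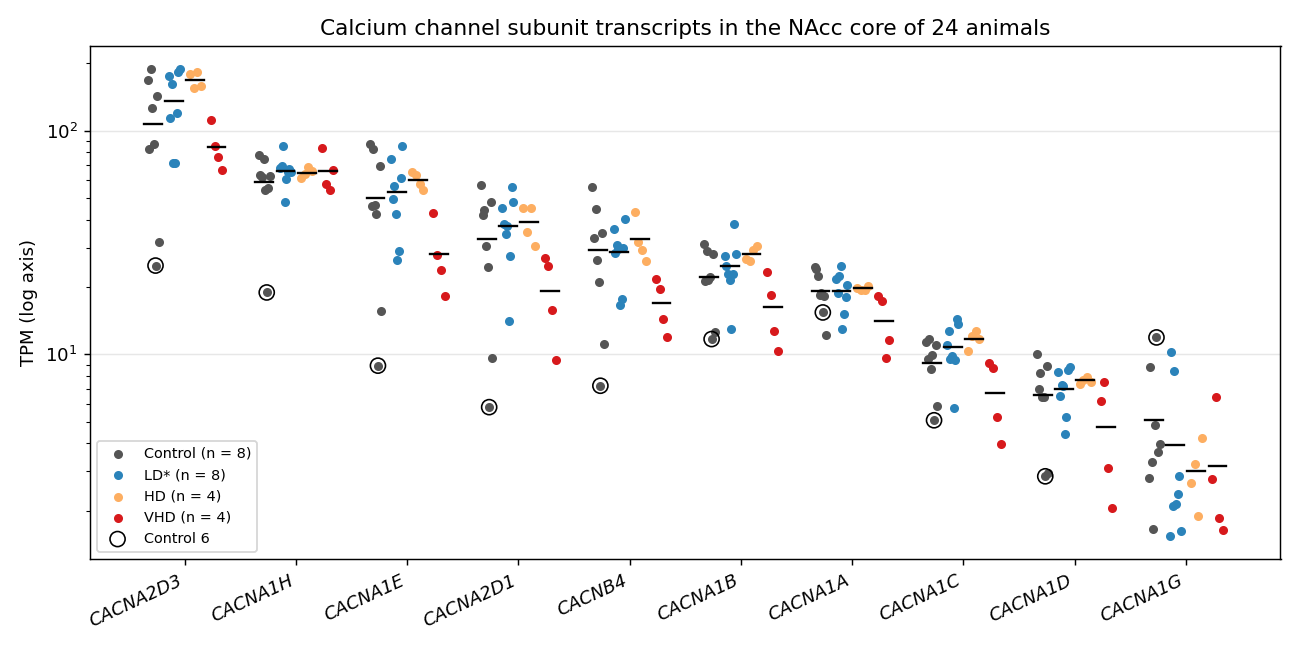
TPM of each member (log axis) in every animal, with members ordered by mean level, points colored by group (Control n = 8, LD* n = 8, HD n = 4, VHD n = 4), black bars at group means and a ring around Control 6. CACNA2D3 lies highest and CACNA1G lowest, and the VHD animals lie below the HD animals in 7 members but not in CACNA1H, CACNA1G or CACNA1D. Over all genes, every VHD animal was below every HD animal in 17.9% (2445 of 13637).

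The members differed in how far they varied between animals. CACNA2D1 ranged 9.88-fold from the lowest to the highest animal, CACNA1E 9.77-fold, CACNB4 7.75-fold, CACNA1G 7.69-fold and CACNA2D3 7.55-fold. Control 6 was the lowest animal in CACNA2D1, CACNA1E, CACNB4 and CACNA2D3 and the highest in CACNA1G. Without it CACNA2D1 ran from 9.42 to 57.4 TPM, CACNA1E from 15.6 to 87.0 TPM and CACNB4 from 11.1 to 56.1 TPM. CACNA2D3 then ran from 31.7 to 188 TPM and CACNA1G from 1.55 to 10.2 TPM. CACNA1A, the P/Q-type pore, ranged only 2.58-fold, with Control 6 at neither end. The SD of log2(TPM + 1) of CACNA2D1 was larger than that of 97.6% of the 13637 genes tested, and that of CACNA1A larger than that of 53.4%. Both SDs include Control 6, and they were not computed without it. CACNA1H held a narrow range in most animals, from 48.0 to 85.6 TPM in 23 of them, with Control 6 at 18.9 TPM.

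A group of 8 members rose and fell together across animals. Among the 28 pairs of the members other than CACNA1G and CACNA1H, Pearson r of log2(TPM + 1) over the 24 animals ran from 0.56 to 0.97 (Spearman rho 0.53 to 0.95) and from 0.59 to 0.96 without Control 6. In 22 of the 45 pairs of all 10 members r was at least 0.8, which 4.12% of all pairs of genes tested reached. The 22 all lay among the 8 members, which were set apart after the correlations were seen. CACNA1E and CACNB4 had r = 0.97 and rho = 0.95, and CACNA1B and CACNA1C had r = 0.97 and rho = 0.90 (permutation p = 1e-05 for each, two-sided, the smallest that 100000 permutations can give, among 45 pairs computed). Without the 2 animals farthest from the median, r among the 28 pairs ran from 0.57 to 0.95. CACNA1D and CACNA2D3, which have 4 protein-coding genes between them in RefSeq's T2T-MMU8v2.0 annotation, had r = 0.81 and rho = 0.83, within the range of the other pairs. The points of each correlation share the same libraries and the same mix of cells.

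CACNA1G stood outside this pattern. Of its 9 pairs with other members, 8 had a negative r, the lowest with CACNA1H at r = −0.57 (rho = −0.44, permutation p = 0.00196 and 0.0325, two-sided). These p are not adjusted, although the pair had the lowest r of the 45 computed. Without Control 6 the r of this pair was −0.38, for which no p was computed, and 3 of the 9 pairs were negative, with r up to 0.32 in the others. CACNA1G was between 6.44 and 11.9 TPM in 5 animals (Control 2, Control 6, LD* 2, LD* 4 and VHD 2) and between 1.55 and 4.82 TPM in the other 19, a division made after its values were seen. The 5 animals came from 3 groups. CACNA1H also ran apart from the 8, with r from 0.21 to 0.65 in its other pairs and at most 0.38 without Control 6.

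**Figure D2:**
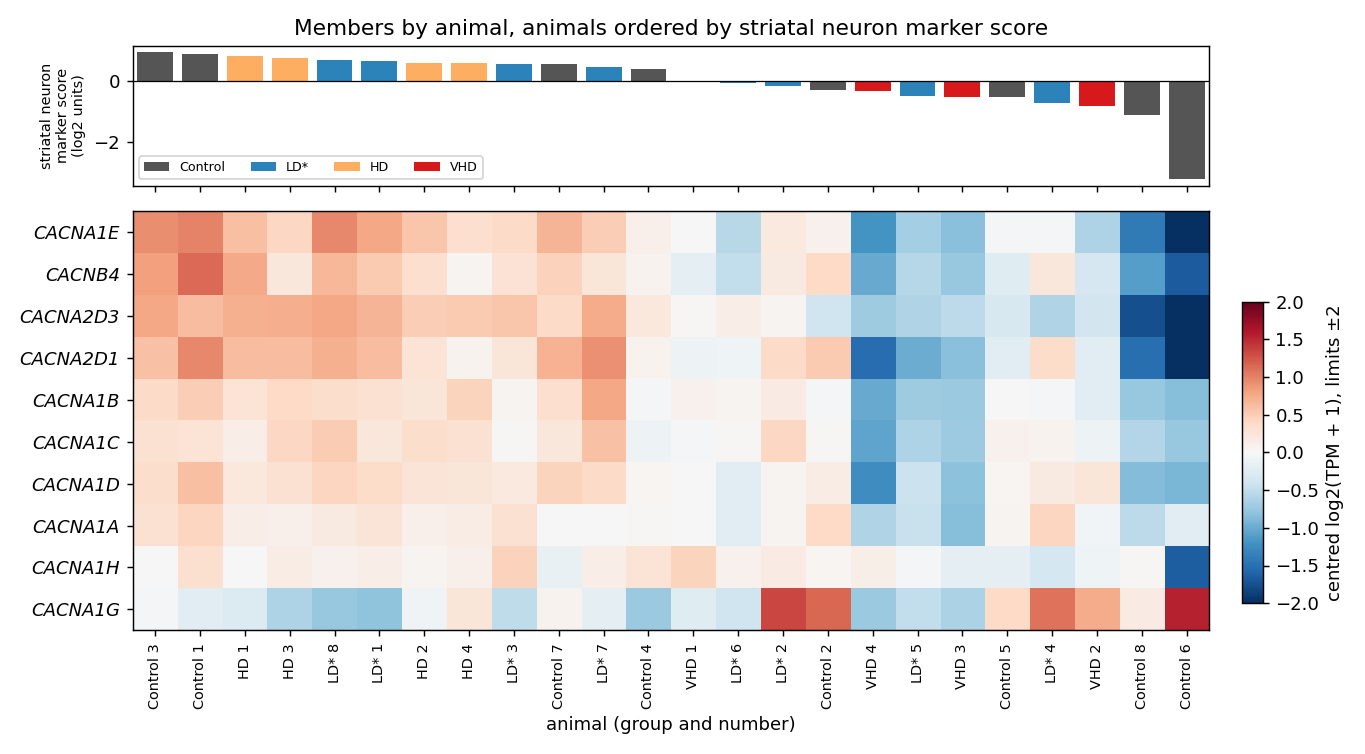
Centred log2(TPM + 1) of the 10 members (rows, color scale limited to ±2) in the 24 animals (columns, ordered from the highest to the lowest striatal neuron marker score, drawn as bars above and colored by group). The upper 8 rows shift together from red to blue along the score, CACNA1H is even except in Control 6, and CACNA1G is high in 5 animals, all of them right of the middle.

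The striatal marker score, the mean over 12 marker genes of centred log2(TPM + 1), was used to describe how the members follow the projection neuron markers. In limma over all 24 animals, 3080 genes rose with the score (22.6% of 13637) and 2731 fell (20%). Of the members, 9 rose and CACNA1G fell. The slope, in log2 units per unit of score, was steepest for CACNA2D3 (0.80, SE 0.06, limma adjusted p = 6.44e-11), CACNA1E (0.79, SE 0.08, adjusted p = 1.42e-08), CACNA2D1 (0.74, SE 0.10, adjusted p = 3.82e-06) and CACNB4 (0.61, SE 0.08, adjusted p = 1.18e-06). It was shallower for CACNA1B (0.39, SE 0.07), CACNA1D (0.37, SE 0.08) and CACNA1C (0.32, SE 0.07), and least for CACNA1A (0.16, SE 0.07, limma adjusted p = 0.0495). CACNA1G fell by 0.46 per unit (SE 0.12, limma adjusted p = 0.00351). Without Control 6, 4303 of the 13637 genes rose and 2638 fell, and 9 members passed. CACNA1H did not, its slope going from 0.35 (limma adjusted p = 1.57e-05) to 0.14 (limma adjusted p = 0.0602). Against the oligodendrocyte score, where 1.33% of all genes fell, CACNA1H was the member that passed (slope −0.47, SE 0.09, limma adjusted p = 0.000984). Without Control 6, where 6 of all genes fell, its slope was −0.23 and it did not pass (SE 0.07, limma adjusted p = 0.0797).

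**Figure D3:**
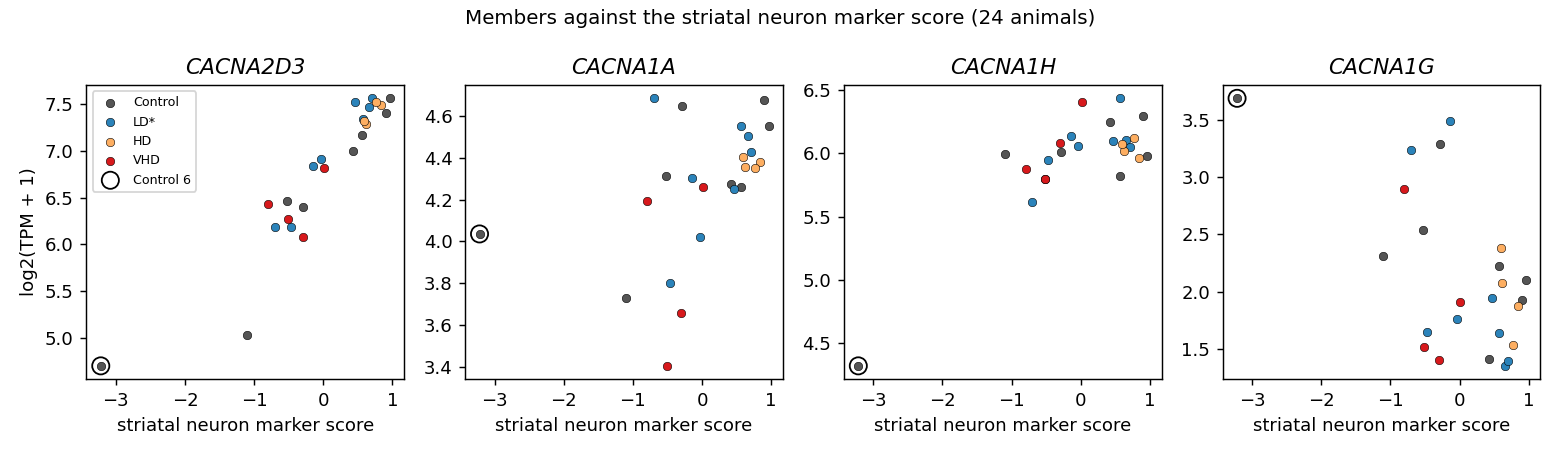
log2(TPM + 1) of CACNA2D3, CACNA1A, CACNA1H and CACNA1G against the striatal neuron marker score (log2 units), 1 point per animal colored by group with Control 6 ringed. CACNA2D3 climbs along the whole score, CACNA1H is level apart from Control 6 at 18.9 TPM, and the 5 highest CACNA1G values lie at scores below 0.

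The genes most alike to each member over the 24 animals were searched among 9190 others that averaged 10 TPM or more. The closest for CACNA1E were MKL2 (r = 0.99, rho = 0.98) and CNKSR2 (r = 0.99), and for CACNB4 OSBPL8 (r = 0.98) and ARHGAP32 (r = 0.98). CACNA2D3 was closest to HMP19 (r = 0.97) and CHRM1 (r = 0.97), the M1-type muscarinic receptor. CACNA2D1 and CACNA1B shared FRMPD4 (r = 0.97 and 0.96), beside CAP2 for CACNA2D1 (r = 0.97) and PRPS2 for CACNA1B (r = 0.97). CACNA1C was closest to KIAA1549L and C16orf70 (r = 0.97 each), CACNA1D to MYCBP2 and RSF1 (r = 0.97 each) and CACNA1A to CYTH3 (r = 0.92) and HECTD4 (r = 0.91). CACNA1G was closest to GALNT9 and SYT13 (r = 0.93 each). CACNA1H was closest to DOC2B (r = 0.94) and JPH4 (r = 0.93), which went to 0.75 and 0.67 without the 2 animals farthest from its median. For the other members these values stayed at 0.84 or above. These likenesses are a description of the 24 libraries.

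The 10 pore genes of the family, the 7 members and CACNA1F, CACNA1I and CACNA1S, summed to 192 ± 45.3 TPM (n = 24). Of that sum CACNA1H made up 34% ± 7.9 (mean ± SD over animals) and CACNA1E 24.2% ± 6.9. CACNA1B made up 11.9% ± 1.8, CACNA1A 9.88% ± 2.2, CACNA1I 7.08% ± 1.0 and CACNA1C 5.04% ± 0.75. CACNA1D made up 3.38% ± 0.60 and CACNA1G 2.46% ± 2.8. The makeup was similar in controls and LD* animals, with CACNA1H at 32.0% ± 8.8 and 33.1% ± 6.5. In HD animals CACNA1H was between 28.9% and 31.4% of the pore sum, and in VHD animals between 35.8% and 51.9%, without overlap. Its share ran from 22.3% to 49.9% in controls and from 25.9% to 43.4% in LD* animals. Controls thus covered the HD range and all but the upper end of the VHD range. CACNA1E was between 25.6% and 31.0% in HD and between 14.2% and 21.2% in VHD animals. Controls spanned both of these CACNA1E ranges, and LD* animals ran from 17.4% to 35.1%. CACNA1H exceeded CACNA1E in 3 of 4 HD and 4 of 4 VHD animals. The pore sum itself was 215 ± 2.81 TPM in HD and 154 ± 37.1 TPM in VHD animals, while CACNA1H averaged 65.1 and 65.8 TPM. These shares are a description and were not tested.

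**Figure D4:**
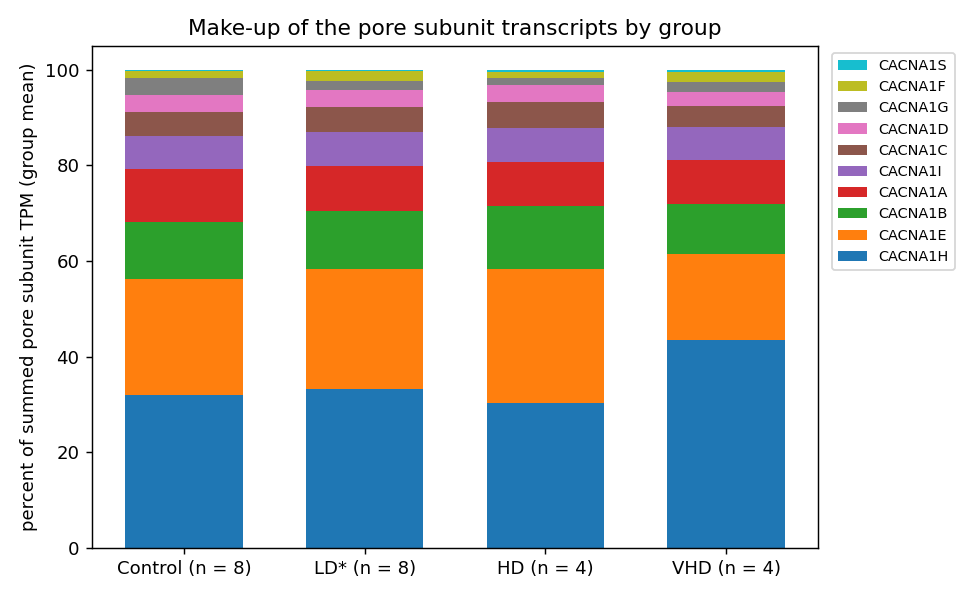
Group means of each pore gene's percent of the summed pore TPM in controls (n = 8), LD* (n = 8), HD (n = 4) and VHD (n = 4), stacked to 100%. CACNA1H takes 30.2% in HD and 43.5% in VHD animals, and CACNA1E 28.1% and 18.0%.

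HD* animals and controls addressed whether heavy drinking went with other channel levels, and no member passed the test. CACNA2D3, at 25, 107 and 188 TPM in controls (lowest, median, highest) and 66.6, 134 and 183 TPM in HD* animals, had the largest positive log2 fold change, 0.44 (SE 0.36, limma adjusted p = 0.712). CACNA1H was at 18.9, 62.5 and 77.6 TPM in controls and 54.6, 65.1 and 83.9 TPM in HD* animals (log2 fold change 0.24, SE 0.19, limma adjusted p = 0.708). CACNA1G was at 1.66, 3.82 and 11.9 TPM in controls and 1.64, 2.72 and 6.44 TPM in HD* animals (log2 fold change −0.49, SE 0.33, limma adjusted p = 0.706). The groups overlapped in each of these. The other 7 members had log2 fold changes from −0.19 (CACNA1A) to 0.00 (CACNA1E). Of the 10 members, 0 passed an adjusted p of 0.05 in limma and 0 had an unadjusted p under 0.05, where 0 of 13637 genes (0%) passed and 775 had an unadjusted p under 0.05. The study, testing counts of the same groups with DESeq2, did report genes that differed. It lists CACNA1C among those lower in heavy and very heavy drinkers. Counts were not available here, so that test was not repeated. The median over the members was −0.01, against −0.12 over all genes. Rescaling the libraries with TMM, a trimmed mean of log ratios between animals, moved the median of all genes to −0.01 and turned the sign of 5 members, CACNA1B, CACNA1C, CACNA1D, CACNA2D1 and CACNB4. Without Control 6 the values were 0.18 for CACNA2D3, 0.02 for CACNA1H and −0.31 for CACNA1G, nearer to 0 than with this animal. Other members moved away from 0 without it, to −0.29 for CACNA2D1, −0.29 for CACNA1E, −0.33 for CACNB4, −0.21 for CACNA1D, −0.12 for CACNA1B, −0.12 for CACNA1C and −0.22 for CACNA1A, and 0 passed (limma).

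Summed striatal neuron markers had medians of 7297 TPM in controls, 7334 TPM in LD* and 7971 TPM in HD* animals, with ranges that overlapped. HD* animals and controls occurred together only in cohorts 5 and 7a. In cohort 5 the log2 differences were −0.64 for CACNB4, −0.54 for CACNA1E and −0.54 for CACNA2D1, and in cohort 7a −0.05, 0.05 and −0.02. CACNA2D3 differed by −0.11 in cohort 5 and by 0.70 in cohort 7a. The effects in the 2 cohorts did not differ past the threshold for any member (limma interaction, smallest p among members 0.305, adjusted p = 1.00).

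LD* animals were compared with the same controls, and again 0 members passed (limma, 0% of all genes), 0 at an unadjusted p under 0.05, where 387 genes had one. Log2 fold changes were positive for 9 members and negative for CACNA1G, from −0.38 for CACNA1G to 0.54 for CACNA2D3 (SE 0.36, limma adjusted p = 1.00), with a median of 0.20 against −0.03 over all genes. Of the 13637 genes, 5719 had a positive log2 fold change, and 7156 after TMM rescaling. CACNA2D3 was at 71.7, 141 and 188 TPM in LD* animals, and the groups overlapped. Without Control 6 the value of CACNA2D3 was 0.29, and CACNA1A and CACNB4 turned to −0.03 and −0.08. Between HD* and LD* animals all 10 members had negative log2 fold changes, from −0.41 for CACNA2D1 to −0.01 for CACNA1H, the latter 0.08 after TMM rescaling and CACNA1G 0.04 with cohort as a covariate, and 0 passed (limma, 0% of all genes, 147 of which had an unadjusted p under 0.05). Their median was −0.21, against −0.08 over all genes. Of the 13637 genes, 9990 had a negative log2 fold change here, and 7006 after TMM rescaling.

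**Figure D5:**
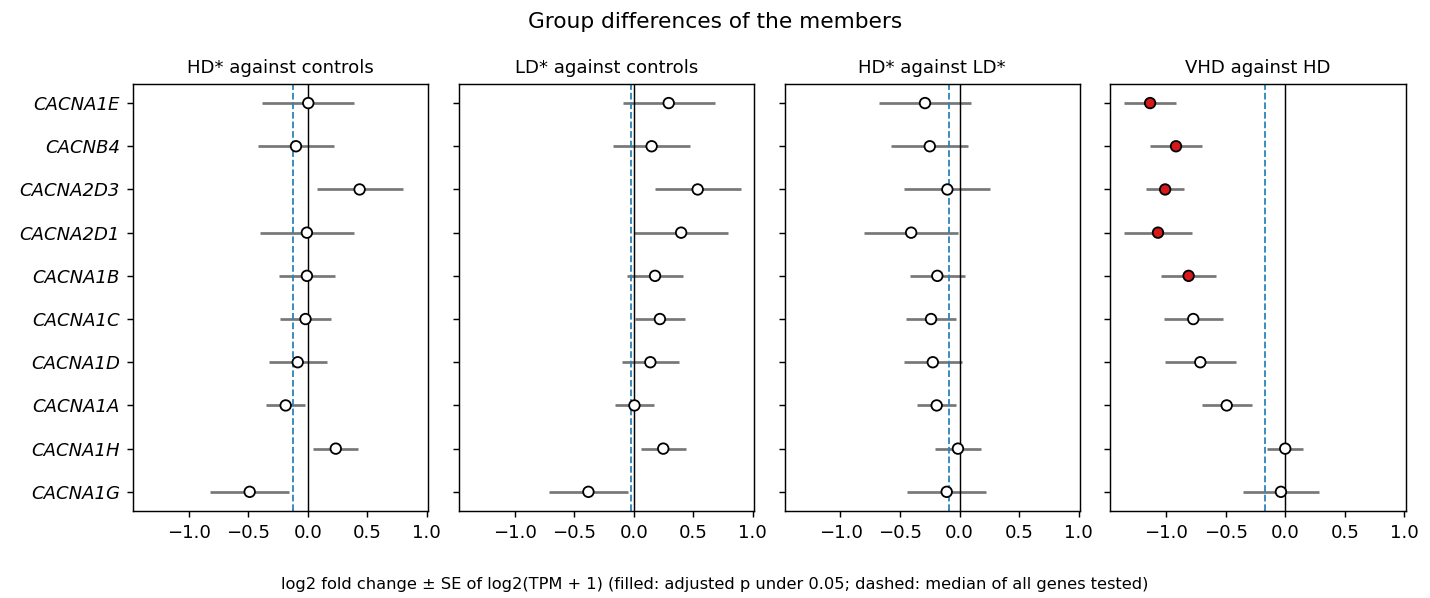
Log2 fold change ± SE of log2(TPM + 1) for the 10 members in HD* against controls, LD* against controls, HD* against LD* (n = 8 each) and VHD against HD (n = 4 each), filled where the adjusted p was under 0.05, with the median of all genes dashed. In the first 3 panels no member is filled, and in the last 5 are, between −0.81 and −1.14.

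Within the heavy drinkers the members differed. In all, 5 members were lower in VHD than in HD animals, namely CACNA1E, CACNA2D1, CACNA2D3, CACNB4 and CACNA1B, by between 0.81 and 1.14 on the log2 scale. This is 5 of 10 members, where 11.4% of all genes were lower (1556 of 13637) and 3.23% higher. The median over the members was −0.79, against −0.17 over all genes. After TMM rescaling the median of all genes was 0.01, the genes that passed were 1170 higher and 1411 lower in place of 441 and 1556, and 6 members passed, CACNA1C among them. The 5 members then lay between −0.62 and −0.94, while CACNA1G and CACNA1H turned to 0.10 and 0.20. The HD* animals of this comparison are those of the comparisons with controls and LD*.

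CACNA2D3 was at 155, 159, 180 and 183 TPM in the HD animals and at 66.6, 76.0, 85.1 and 112 TPM in the VHD animals. Every VHD animal was below every HD animal (log2 fold change −1.01, SE 0.16, limma adjusted p = 0.00505). CACNA1E was at 54.6, 58.0, 63.6 and 65.7 TPM in HD and at 18.3, 23.7, 27.9 and 43.0 TPM in VHD animals, also without overlap (log2 fold change −1.14, SE 0.22, limma adjusted p = 0.00906). CACNB4 was at 26.2, 29.4, 31.8 and 43.3 TPM in HD and at 12.0, 14.4, 19.6 and 21.8 TPM in VHD animals (log2 fold change −0.92, SE 0.22, limma adjusted p = 0.0202). The lowest HD animal in this β subunit was above the highest VHD animal. CACNA2D1 was at 30.6, 35.4, 45.3 and 45.3 TPM in HD and at 9.42, 15.8, 24.7 and 27.1 TPM in VHD animals (log2 fold change −1.07, SE 0.29, limma adjusted p = 0.0294). CACNA1B was at 26.1, 26.7, 29.3 and 30.4 TPM in HD and at 10.4, 12.8, 18.5 and 23.5 TPM in VHD animals (log2 fold change −0.81, SE 0.23, limma adjusted p = 0.0351). Neither the second α2δ subunit nor the N-type pore overlapped between the groups. Controls again covered a wide range, from 8.91 to 87.0 TPM in CACNA1E, 7.24 to 56.1 TPM in CACNB4 and 5.81 to 57.4 TPM in CACNA2D1. In CACNA1B they ran from 11.7 to 31.2 TPM, above the lowest VHD animal.

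The other 5 members did not pass. The L-type pore CACNA1C was at 10.3, 11.8, 12.1 and 12.7 TPM in HD and at 3.99, 5.26, 8.65 and 9.11 TPM in VHD animals (log2 fold change −0.77, SE 0.25, limma adjusted p = 0.0535), and its groups did not overlap. With cohort as a covariate it passed (limma adjusted p = 0.0327), which made 6 members, where 2757 of all genes passed and 2189 of them were lower. The limma adjusted p of CACNA1C ran from 0.0137 to 0.957 over all alternatives. CACNA1D was at 7.40 to 7.95 TPM in HD animals and at 2.05, 3.11, 6.20 and 7.54 TPM in VHD animals, which overlapped (log2 fold change −0.72, SE 0.30, limma adjusted p = 0.122). CACNA1A was at 19.4 to 20.2 TPM in HD and at 9.59, 11.6, 17.3 and 18.2 TPM in VHD animals (log2 fold change −0.49, SE 0.21, limma adjusted p = 0.129). Among the members, the T-type pores gave values near 0. CACNA1I, a T-type pore outside the members, had a log2 fold change of −0.51 (SE 0.19, limma adjusted p = 0.086). CACNA1H was at 61.4 to 68.6 TPM in HD and 54.6 to 83.9 TPM in VHD animals (log2 fold change −0.00, SE 0.15, limma adjusted p = 0.996), and CACNA1G at 1.90 to 4.22 TPM and 1.64 to 6.44 TPM (log2 fold change −0.04, SE 0.32, limma adjusted p = 0.947). In 7 members every VHD animal was below every HD animal, which held for 17.9% of all genes.

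In some members the HD animals were closer to one another than the VHD animals. CACNA1D ranged from 7.40 to 7.95 TPM in HD, and CACNA1A had an SD of 0.372 TPM in HD against 4.22 TPM in VHD animals. In CACNB4 the SD was larger in HD (7.43 TPM) than in VHD animals (4.56 TPM). VHD 3 and VHD 4, both of cohort 7a, had the lowest values of CACNA1A, CACNA1B, CACNA1C, CACNA1D, CACNA1E, CACNA2D1, CACNA2D3 and CACNB4 among the 8. VHD minus HD was −1.30 for CACNA1B in cohort 7a and −0.33 in cohort 5, −1.31 and −0.12 for CACNA1D, and −1.53 and −0.61 for CACNA2D1, each from 2 against 2 animals. CACNA2D3 differed by −1.25 and −0.77, CACNA1E by −1.39 and −0.88 and CACNB4 by −1.03 and −0.81. The difference between the cohorts passed for 0 members (limma interaction, smallest adjusted p among members 0.247, CACNA1A, CACNA1B, CACNA1C, CACNA1D and CACNA2D1 at an unadjusted p under 0.05), and for 0 of all genes.

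The result depended on how the spread was estimated. In 1 model of all 24 animals in 4 groups the fold changes were the same, but 0 members passed (smallest limma adjusted p among members 0.0639, for CACNA1C) and 0 of all genes, where 4608 genes had an unadjusted p under 0.05. No gene reached an adjusted p of 0.001 in the model of the 8 animals. The study compared these HD and VHD animals in a secondary analysis and did report genes that differed at an FDR under 0.001. Counts were not available here, so its analysis was not repeated. With any single animal of the 8 left out, CACNA1E and CACNA2D3 passed in 8 of 8 fits. CACNB4 passed in 4 of 8 (without HD 4, VHD 1, VHD 2 or VHD 4), CACNA2D1 in 3 of 8 (without VHD 1, VHD 2 or VHD 4) and CACNA1B in 2 of 8 (without VHD 1 or VHD 2). Without VHD 2, 8 members passed, CACNA1A, CACNA1C and CACNA1D among them. Over all 13637 genes, 4651 passed in that fit and 3972 of them were lower, in place of 1997 and 1556.

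Neuronal markers moved with this comparison. The 12 striatal neuron markers summed to between 9539 and 11146 TPM in HD and between 3579 and 6403 TPM in VHD animals, and the mean of each of the 12 was lower in VHD animals. The 8 general neuron markers summed to between 4568 and 4991 TPM in HD and between 2006 and 3841 TPM in VHD animals, with 7 of 8 means lower. All 7 astrocyte and all 8 microglia markers had a higher mean in VHD animals, the astrocyte sum being between 2154 and 3820 TPM in HD and between 4899 and 7775 TPM in VHD animals. Summed oligodendrocyte markers overlapped, at 2591 to 4401 TPM and 2505 to 5301 TPM, with 7 of 10 means lower in VHD animals. None of these markers was at 0 in any animal. The striatal score did not overlap between the groups (0.59 to 0.84 in HD, −0.80 to 0.01 in VHD animals). A fit with this score as a covariate can therefore hardly tell score from group. With it, 0 members passed, and CACNA2D3 was −0.50 (SE 0.41, against 0.16 without the score, limma adjusted p = 0.55). The median of all genes was −0.53. In that fit CACNA1C was −0.82, CACNA1D −1.09, CACNA1G −1.42 and CACNA1H 0.67, farther from 0 than without the score, and CACNA2D1 was −0.84. The general neuron score did not overlap either (0.17 to 0.43 in HD, −0.89 to 0.04 in VHD animals). With the general neuron score, 0 members passed, and CACNA2D3 was −0.68 (SE 0.24, limma adjusted p = 0.152). CACNA1A, CACNA1C and CACNA1D had positive values of 0.13, 0.03 and 0.43, with the median of all genes at 0.23. Over all alternatives tried the adjusted p of CACNA2D3 ran from 0.00175 to 0.55. Summed microglia markers were between 344 and 444 TPM in HD and between 453 and 780 TPM in VHD animals. Summed endothelial markers overlapped (83.3 to 103 TPM and 55.2 to 105 TPM), with 4 of 4 means lower in VHD animals. The fits with a score cannot separate it from the group, and the part of cell composition in the difference between VHD and HD animals was not tested.

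Intake was also fitted as a slope within the LD* and HD* groups (16 drinkers). All 10 slopes were negative, from −0.56 log2 units per g/kg for CACNA2D1 (SE 0.35, limma adjusted p = 0.506) to −0.03 for CACNA1H (SE 0.14), the latter 0.10 after TMM rescaling. The smallest p belonged to CACNB4 (slope −0.48, SE 0.27, unadjusted p = 0.092, limma adjusted p = 0.498). Of the members 0 passed, 0 at an unadjusted p under 0.05, where 0% of all genes passed and 1107 had an unadjusted p under 0.05. The median slope was −0.39, against −0.11 over all genes. Of the 13637 genes, 9207 had a negative slope, and 6807 after TMM rescaling. The slope of CACNA1G, −0.52, turned to 0.34 without LD* 2, the animal with the lowest intake (0.47 g/kg) and 10.2 TPM.

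Cohort was fitted beside the groups. For CACNB4 the means were 32.4 TPM in cohort 4 (n = 2), 35.8 in cohort 5 (n = 7), 24 in cohort 7a (n = 9) and 22.0 in cohort 7b (n = 6), and it had the smallest p among members (limma moderated F = 3.68, unadjusted p = 0.0277, adjusted p = 0.540). CACNA2D1 went from 39.4 TPM in cohort 5 to 24.6 TPM in cohort 7b (F = 3.07, limma unadjusted p = 0.049, adjusted p = 0.540). No member passed, nor did any of the 13637 genes (0%), of which 1140 had an unadjusted p under 0.05. Without Control 6 the F values were 2.88 and 1.98.

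Of the other subunit genes, 13 of 16 had a mean of at least 1 TPM. The most abundant were 3 γ subunits, which as a family include the auxiliary proteins of AMPA receptors, namely CACNG4 (185 ± 47.2 TPM), CACNG7 (151 ± 21.8 TPM) and CACNG3 (141 ± 48.4 TPM). In HD* against controls 0 of the 13 passed (limma), with a median of 0.06. In VHD against HD 5 of 13 were lower, CACNB1, CACNB2, CACNG2, CACNG3 and CACNG8, and 0 higher, where 11.4% of all genes were lower and 3.23% higher (median −0.64, against −0.17 over all genes). CACNG3, lower by 0.91 on the log2 scale, was among the 5 (SE 0.16, limma adjusted p = 0.00703), while CACNG4 (−0.38, SE 0.15, limma adjusted p = 0.109) and CACNG7 (−0.06, SE 0.14, adjusted p = 0.783) did not pass. The β subunits CACNB1 (−1.14, SE 0.16) and CACNB2 (−1.05, SE 0.19) were lower, while CACNB3, the most abundant β subunit at 134 ± 22.2 TPM, did not pass (−0.23, SE 0.14, limma adjusted p = 0.264).

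Of the 15 partner genes, which encode active zone scaffolds, channel-binding proteins and the leak channel NALCN, 14 were tested. The most abundant were AKAP5 (56.3 ± 21.2 TPM), CABP1 (48.1 ± 17.1 TPM) and RIMS2 (40.0 ± 6.87 TPM). None passed in HD* against controls (limma, 0 at an unadjusted p under 0.05), and 2 of 14, ERC1 and NALCN, were lower in VHD than in HD animals, near the 11.4% of all genes. Of the 6 calcium release channels of the endoplasmic reticulum, ITPR1 (78.6 ± 33.9 TPM), RYR2 (25.1 ± 11.9 TPM) and RYR1 (8.81 ± 2.53 TPM) were the most abundant. ITPR2 (7.44 ± 2.15 TPM), an IP3 receptor, had the smallest unadjusted p of these lists in HD* against controls (log2 fold change −0.46, SE 0.16, unadjusted p = 0.00831, limma adjusted p = 0.706). In VHD against HD, RYR2 (−1.27, SE 0.24), RYR3 (−1.06, SE 0.31) and ITPR1 (−0.95, SE 0.22) were lower and RYR1 higher (0.86, SE 0.23, limma adjusted p = 0.0273). The same call was lost for all of these lists in the 4-group model, in which 0 genes passed.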

How the data were processed

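RNA of the NAcc core was measured in 24 rhesus macaques. The authors made polyA-selected libraries, aligned reads to the MacaM assembly with STAR 2.5.2b, kept unique alignments, counted genes with HTSeq 0.6.1p1 and tested with DESeq2. Strand and read pairing are described differently in the series text and in the sample descriptions. The deposited values, although their name speaks of normalized counts, are TPM, with columns summing to between 999998 and 1000000 over 17208 rows. The conversion and gene lengths are not given in the sources used here. Read depth is unknown, tests on counts were not possible, and overlapping or antisense genes could not be separated. Of the symbols, 27 had turned into dates and 4 rows shared a symbol, none of them a member.

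Values were taken as log2(TPM + 1), which understates changes of low genes. All 13637 genes averaging 1 TPM or more were fitted with limma 3.58.1 (R 4.3.3, empirical Bayes with trend), adjusting p by Benjamini-Hochberg over all of them at 0.05. One model of 3 groups gave the group comparisons, a model of the 8 HD* animals VHD against HD, and further models the intake slope with a group term, cohort beside group, and marker score slopes. Marker scores are means of centred log2(TPM + 1). The endothelial marker PECAM1 was not used here. Each sample is from a separate animal. Named were all members, the 3 most abundant genes of each list, any with an unadjusted p under 0.05 in HD* against controls, and the 2 genes most alike to each member. Other genes that passed in VHD against HD are named because they are few, after their values were seen. CACNA1I is named as a pore gene, and its VHD against HD value was also added after it was seen. The members and lists were chosen with earlier results of these data known. No sequences are shown. Correlations and plots used Python 3.11.15, numpy 2.4.6, scipy 1.17.1, pandas 2.3.3 and matplotlib 3.10.9. The fits were tested on simulated data. Alternatives were pseudocounts of 0.1 and 8, no filter, a filter of 10 TPM, TMM rescaling (trims of 30% and 5%), covariates, other sets of animals in the model, and each animal left out.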

Additional observations from a re-analysis of the deposited data

Results flagged for a closer look

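Among 50 combinations of a member and a group, 1 animal lay apart from the rest of its group. CACNA1H was at 18.9 TPM in Control 6, and the other 7 controls were between 54.6 and 77.6 TPM. Chance alone gives such a flag in about 1 in 20 groups. The same animal had the highest CACNA1G of the controls (11.9 TPM), summed striatal neuron markers of 782 TPM and summed oligodendrocyte markers of 10128 TPM. Without it, CACNA1H went from a log2 fold change of 0.24 to 0.02 in HD* against controls, and what set this animal apart was not tested.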

How the results depend on the processing

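Read depth is unknown, so precision rests on the number of animals. In VHD against HD, 1997 genes and 5 members passed, and 1459 genes and 3 members without the filter on low genes. With TMM rescaling 2581 genes and 6 members passed, and with cohort as a covariate 2757 genes and 6 members, each adding CACNA1C. No gene (0) and 0 members passed in the 4-group model. With covariates added after the data were seen, 0 genes and 0 members passed with the striatal score, and 2 genes and 0 members with the general neuron score. Neither score overlapped between HD and VHD animals, so these fits cannot tell score from group. Leaving out 1 animal gave 476 to 4651 genes and 2 to 8 members, with 4651 genes without VHD 2 and between 476 and 1094 without VHD 3 or any 1 HD animal. In the comparisons with controls or LD* and for cohort, 0 genes passed under every alternative, and for the intake slope 0 to 1 on leaving out 1 animal (1 without LD* 2). The oligodendrocyte slope went from 1095 genes and 1 member to 383 and 0 without Control 6.

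Values whose sign turned are log2 differences, none of them past the threshold, and the cause of each turn was not tested. In HD* against controls, TMM rescaling gave 0.11 for CACNA1B, 0.090 for CACNA1C, 0.015 for CACNA1D, 0.11 for CACNA2D1 and 0.022 for CACNB4. CACNA2D1 was 0.0043 with a pseudocount of 0.1. CACNA1E was −0.032 with a pseudocount of 8, −0.26 with cohort, −0.16 with the oligodendrocyte score, −0.35 with the striatal score and −0.35 in cohorts 5 and 7a only. Leaving out 1 animal spanned −0.12 to 0.13 for CACNA1B, −0.12 to 0.12 for CACNA1C, −0.21 to 0.080 for CACNA1D, −0.29 to 0.16 for CACNA1E, −0.29 to 0.19 for CACNA2D1 and −0.33 to 0.065 for CACNB4. In LD* against controls, CACNA1A was −0.020 and CACNB4 −0.025 with the oligodendrocyte score, and CACNA1A −0.070, CACNA1D −0.022, CACNA1E −0.044 and CACNB4 −0.12 with the striatal score. Leaving out 1 animal spanned −0.077 to 0.080 for CACNA1A and −0.084 to 0.32 for CACNB4. In HD* against LD*, CACNA1H was 0.075 with TMM and 0.043 with the oligodendrocyte score, and CACNA1G 0.042 with cohort. Leaving out 1 animal spanned −0.24 to 0.10 for CACNA1G, −0.077 to 0.041 for CACNA1H and −0.22 to 0.015 for CACNA2D3. In VHD against HD, CACNA1G was 0.0070 with a pseudocount of 8, 0.10 with TMM, 0.10 with the oligodendrocyte score and 1.10 with the general neuron score, and CACNA1H 0.20 with TMM, 0.67 with the striatal score and 0.087 with the general neuron score, which also gave CACNA1A 0.13, CACNA1C 0.026 and CACNA1D 0.43. Leaving out 1 animal spanned −0.36 to 0.14 for CACNA1G and −0.12 to 0.080 for CACNA1H. The intake slope of CACNA1H was 0.10 with TMM, 0.018 with cohort and 0.10 with the oligodendrocyte score, and leaving out 1 animal spanned −0.15 to 0.020 for it and −0.65 to 0.34 for CACNA1G. The oligodendrocyte slopes of CACNA1A and CACNA1D turned to 0.0026 and 0.092 without Control 6. No paired analysis was made, because each animal gave 1 sample and the design has no pairs.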
